A study of Mus musculus with 2 samples.

Results

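The genes described here encode the protein parts of the cytosolic ribosome, and their transcripts were measured by RNA sequencing in cleavage-stage mouse embryos. Members were chosen by name alone: symbols that begin with Rpl or Rps and a digit, together with Rplp0, Rplp1, Rplp2 and Rpsa, without the S6 kinases and Rps19bp1. This gave 90 of the 23418 rows of the deposited table, 54 of the large subunit and 36 of the small subunit. Of these, 77 are core ribosomal proteins (46 large, 31 small), 8 are paralogs of a core gene and 5 are named as pseudogenes. The embryos were of the C57BL/6 background and carried one of 2 injected siRNAs. In the siDnmt1 group the siRNA was against Dnmt1, which encodes the methyltransferase that maintains DNA methylation through cell division. In the scrambled group it had no stated target. Both groups were injected embryos collected at the 4 to 8-cell stage, with 20 embryos pooled into a single library per group, so differences between the groups could not be set against the spread between embryos or pools.

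A ribosome is built from ribosomal RNA and a fixed set of proteins, which are made in the cytoplasm, imported into the nucleolus and assembled there into a small subunit that reads the mRNA and a large subunit that joins amino acids. The mRNAs of most of these proteins start with a run of pyrimidines, the TOP motif, through which mTOR signalling and the RNA-binding protein Larp1 set how far they are translated. A cleavage-stage embryo first lives on ribosomes and mRNAs left by the oocyte, and it begins to transcribe its own ribosomal genes after genome activation.

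In each pair of counts below the siDnmt1 library stands first and the scrambled library second. Poly(A) RNA was amplified by 20 cycles of PCR without molecular identifiers, so every interval below is a 95% Clopper-Pearson interval that covers counting error only. The siDnmt1 library held 12236615 counts and the scrambled library 11675483. The precursor of ribosomal RNA, Rn45s, took 37.3% and 29.9% of them, which left 7670163 and 8187941 counts in all other rows. Dnmt1 itself had 687 siDnmt1 and 847 scrambled counts. Of 12 markers of oocytes and cleavage embryos, the siDnmt1 library held 10 and the scrambled library 12, with summed counts of 67411 and 41076. Sp110 alone gave 60968 and 32953 of these. The other 11 markers summed to 6443 and 8123, with 9 of them lower in the siDnmt1 library. Dnmt1, the target of the siRNA, is among these 9. Ooep and Zscan4d were the markers at 0 in the siDnmt1 library. All 7 markers of cumulus and granulosa cells were at 0 in both libraries. The 3 blood markers summed to 16 and 8 counts and the 4 fibroblast and oviduct markers to 0 and 2. The part of these cells in the results below was not tested. In pooled embryos, fewer cells of a type and less RNA per cell cannot be told apart.

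The start sites of 7 members are shown because these genes lie toward the ends of the range of differences described below, and because a pyrimidine run at the first bases is what the mRNAs of this family are known for. Each line gives 20 bases before and 20 bases from the annotated start, 5′ to 3′ on the gene's strand, from RefSeq windows on GRCm38.p6, and capitals mark the longest run of C and T in it. The first 4 genes had fewer counts in the siDnmt1 library and the last 3 had more.
Rps23, chr13:90923102-90923141, plus strand: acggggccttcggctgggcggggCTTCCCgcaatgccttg
Rps26, chr10:128626487-128626526, minus strand: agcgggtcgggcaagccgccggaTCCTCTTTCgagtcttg
Rpl39l, chr16:10170208-10170247, plus strand: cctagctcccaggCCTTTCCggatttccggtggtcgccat
Rplp0, chr5:115559447-115559486, plus strand: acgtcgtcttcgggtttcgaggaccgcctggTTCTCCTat
Rpl5, chr5:107900508-107900547, plus strand: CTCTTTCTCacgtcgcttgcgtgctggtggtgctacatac
Rps15a, chr7:118116128-118116167, minus strand: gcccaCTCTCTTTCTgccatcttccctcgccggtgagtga
Rpl4, chr9:64173367-64173406, plus strand: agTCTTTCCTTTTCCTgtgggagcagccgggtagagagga

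Within the bases shown, the longest run was 14 bases in Rpl4, 10 in Rps15a and 9 in both Rpl5 and Rps26. The run of Rpl5 begins at the first base shown and may be longer. The longest run was 7 bases in Rpl39l and Rplp0, and 6 in Rps23. In Rpl39l, Rpl5, Rps15a and Rpl4 it lies wholly before the annotated start, and in the other genes shown after it. The capitals thus mark a run near the start and not the first bases of the annotated mRNA. Rps15a also has a shorter run of C and T, in lower case, that spans its annotated start. A run of at least 7 pyrimidines within 20 bases of the start was present in 40 of the 77 windows found for members (51.9%), beside 24.3% of all 32851 promoter windows in the same table. These 77 windows belonged to 65 members. In the 300 bases from 250 before to 50 after the start, both strands searched, the ETS-type letters CCGGAAG were in 35.1% of member windows and 8.86% of all windows. The YY1-type letters ATGGCG were in 32.5% and 8.93%, the Sp1-type letters GGGCGG in 59.7% and 35.7%, and the TATA letters TATAAA in 10.4% and 13.6%. Among members with enough counts to compare, the median log2 ratio between libraries was -1.17 both with and without the pyrimidine run. It was -1.25 with the ETS letters and -1.03 without them, -1.20 and -0.88 for the Sp1 letters, and the other way round, -0.88 and -1.24, for the YY1 letters. None of these splits was tested.

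Most of the measurable ribosomal protein transcripts were lower in the siDnmt1 library, and a single abundant one, Rpl4, was higher by enough to leave their sum the same; other transcripts as short as theirs were low as well. A ratio was taken for rows whose counts averaged 20 or more across the libraries, as log2 of the siDnmt1 count over the scrambled count after adding 5 to each, and 64 members met this minimum (38 large, 26 small). Of them, 37 (57.8%) were at least 2-fold lower in the siDnmt1 library, where 16.7% of all 7315 rows compared were. At least 2-fold higher were 3 members (4.69%), where 12.5% of all rows were. The other 24 members lay within 2-fold. With the trend of all rows on transcript length taken off, described further on, 8 members (12.5%) were lower, beside 13.7% of all rows. Higher on that scale were 14 of the 64 members, beside 938 of the 7270 rows with a length. The median log2 ratio of the members was -1.23 and their range -4.93 to 1.33, while the median over all rows was -0.02, with an interquartile range of -0.67 to 0.57. Below 0 were 52 of the 64 members. The counting interval of the plain ratio left out equality for 45 members that were lower and 5 that were higher, and included it for 14; of all rows compared, 37.0% were lower and 35.4% higher by that measure.

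**Figure D1:**
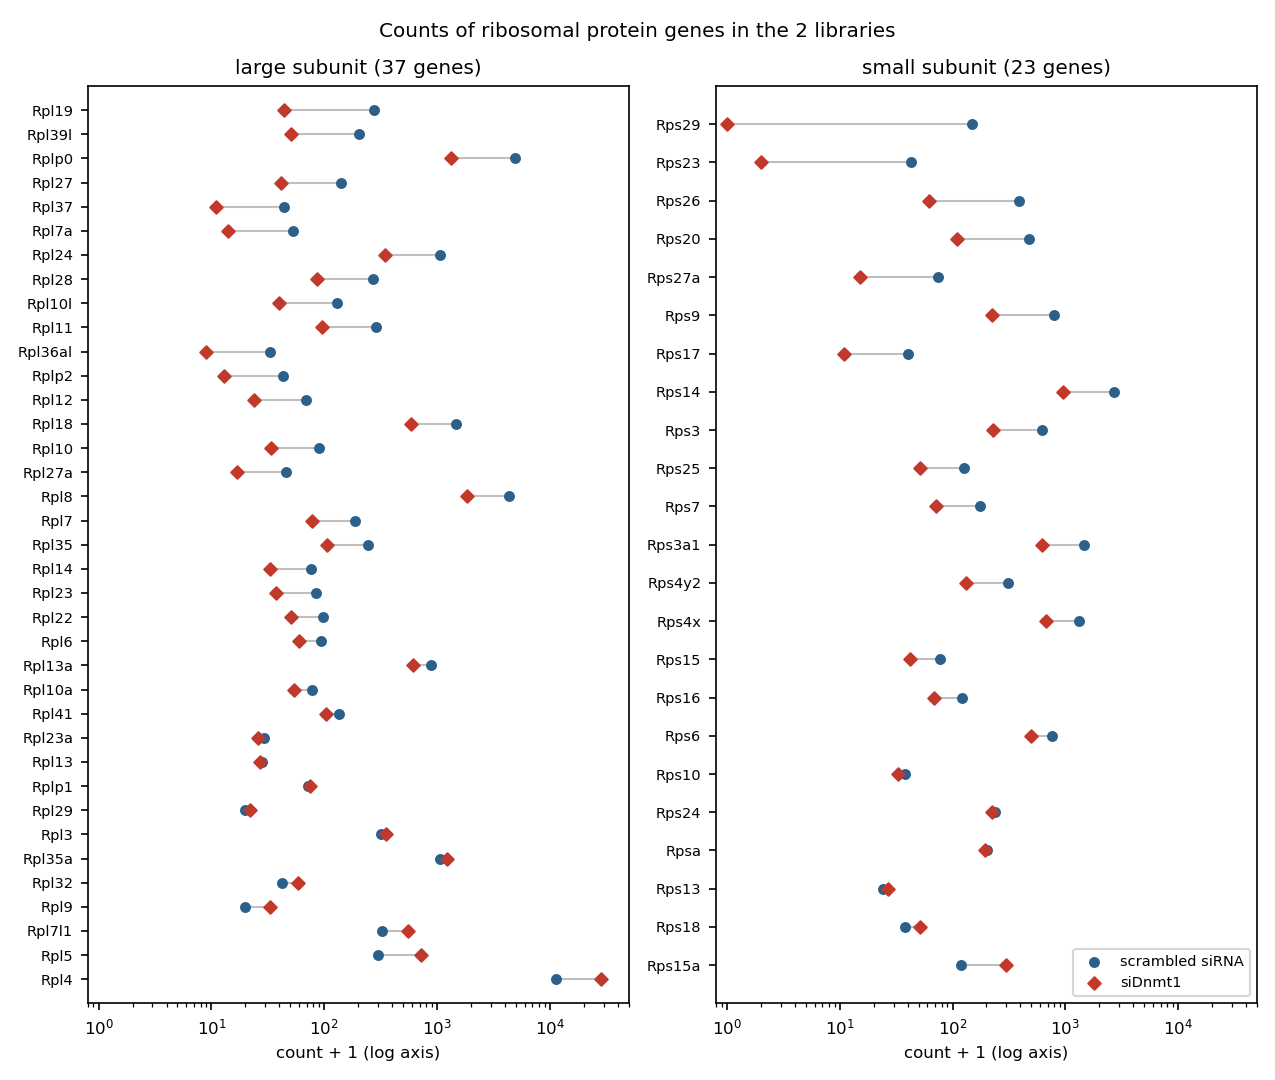
Count plus 1 (logarithmic axis) of 37 large and 23 small subunit members compared, with a circle for the scrambled library and a diamond for the siDnmt1 library joined by a line, ordered by the ratio between them. Diamonds lie to the left of circles in 48 of the 60 genes drawn, and Rpl4, at 28238 against 11234 counts, stands at the far right and the other way round.

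Rpl4, a large subunit protein whose loop reaches into the tunnel through which the new chain leaves, had 28238 siDnmt1 and 11234 scrambled counts. It was 2.51-fold higher (2.46 to 2.57), and it made up 65.3% of all member counts in the siDnmt1 library against 26.0% in the scrambled library. The members summed to 43255 siDnmt1 and 43146 scrambled counts, a ratio whose interval runs from 0.989 to 1.02. Without Rpl4 they summed to 15017 and 31912, 2.13-fold lower (2.08 to 2.17). A sum over this gene family is therefore mostly a measurement of 1 gene in the siDnmt1 library. The next 9 members by mean count summed to 8927 and 21083, 2.36-fold lower, and the 80 members after these 10 summed to 6090 and 10829, 1.78-fold lower.

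**Figure D2:**
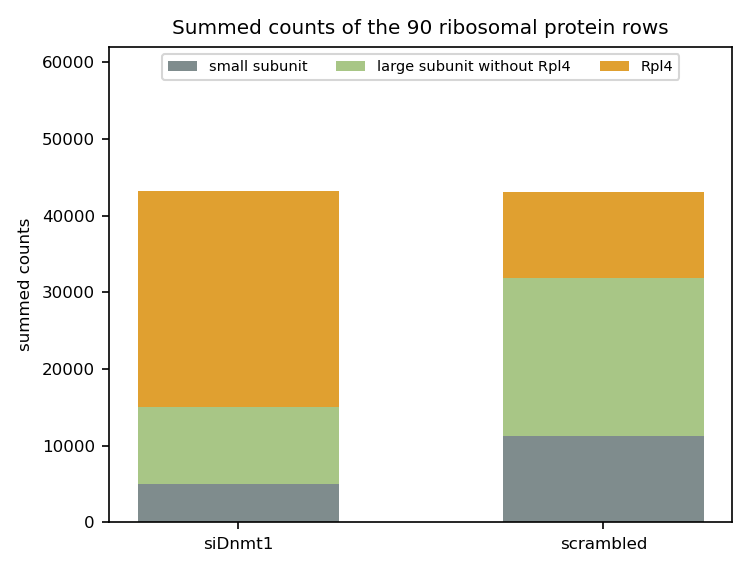
Summed counts of the 90 ribosomal protein rows in each library as stacked bars from 0, divided into the small subunit, the large subunit without Rpl4, and Rpl4; the plot shows no error bars, since the counting intervals are narrow at this scale. The bars are level at 43255 and 43146, with 28238 and 11234 of these counts from Rpl4.

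Large and small subunit members had nearly the same median ratio, while their mean log2 ratios were -0.83 and -1.21. The 38 large subunit members compared had a median log2 ratio of -1.20, with 22 at least 2-fold lower (57.9%), 2 higher and 14 between. The 26 small subunit members had a median of -1.24, with 15 lower (57.7%), 1 higher and 10 between. The medians differed by 0.04 and the means by 0.38, and the small subunit holds the single lowest value, -4.93 for Rps29. The small subunit sum was 5058 siDnmt1 and 11282 scrambled counts, 2.23-fold lower (2.16 to 2.31). The large subunit sum was 38197 and 31864, and without Rpl4 it was 9959 and 20630, 2.07-fold lower. The ratio of large to small subunit counts was thus 7.55 (7.33 to 7.78) in the siDnmt1 library and 2.82 (2.76 to 2.89) in the scrambled library with Rpl4, and 1.97 (1.90 to 2.04) and 1.83 (1.79 to 1.87) without it.

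Besides Rpl4, Rpl5 and Rps15a were the members at least 2-fold higher in the siDnmt1 library. Rpl5, which carries 5S ribosomal RNA into the large subunit, had 717 siDnmt1 and 298 scrambled counts, 2.41-fold higher (2.10 to 2.76). Its partner in that particle, Rpl11, went the other way, with 94 and 288 counts, 3.06-fold lower (2.42 to 3.91). Both proteins are also known to bind Mdm2 when they are not built into ribosomes. Rps15a, a protein of the small subunit body, had 294 and 117 counts, 2.51-fold higher (2.02 to 3.14). In the annotation 17 of the 64 members compared overlap another coding gene: of those named here, Rpl5 (Fam69a), Rps27a (Clhc1), Rpl28 (Ube2s), Rps14 (Ndst1), Rpl12 (Lrsam1), Rpl18 (Sphk2), Rps25 (Ccdc84 and Trappc4), Rps4y2 (Tmtc1), Rpl35 (Arpc5l and Wdr38), Rpl3 (Syngr1), Rpl32 (Cand2), Rps18 (Vps52), Rpl13a and Rpl36al. No source used here says whether strand was used in counting, so reads of an overlap cannot be assigned to one gene. Rpl35a lay close to equality, with 1224 siDnmt1 and 1059 scrambled counts, 1.16-fold higher (1.06 to 1.26).

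The stalk is the arm of the large subunit that recruits the elongation factors, and 3 of its 4 proteins were at least 2-fold lower in the siDnmt1 library, with a median log2 ratio of -1.42. Rplp0, the scaffold of the stalk, had 1340 siDnmt1 and 4944 scrambled counts, 3.69-fold lower (3.47 to 3.92). Rplp2, one of the acidic proteins that sit on it in dimers, had 12 and 42 counts, 3.50-fold lower (1.81 to 7.30). Rplp1, the other acidic protein, was level, with 74 and 71 counts and a ratio of 1.04 (0.742 to 1.46), and a log2 ratio of -0.01 after scaling to equal totals. Rpl12, at the base of the stalk, had 23 and 68 counts, 2.96-fold lower (1.82 to 4.97). The large count of Rplp0 gives its ratio a far narrower interval than those of the other stalk genes.

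Other abundant large subunit members were lower by between 2 and 4-fold or within 2-fold. Rpl8, which lies beside the catalytic centre that joins amino acids, had 1823 siDnmt1 and 4328 scrambled counts, 2.37-fold lower (2.25 to 2.51). Rpl18 had 581 and 1477 counts, 2.54-fold lower (2.31 to 2.80). The intervals of Rpl8 and Rpl18 overlap. Rpl13a was lower by less, at 609 and 882 counts, a log2 ratio of -0.53.

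Among less abundant large subunit members, Rpl19, which reaches across to the small subunit, had 43 siDnmt1 and 275 scrambled counts, 6.40-fold lower (4.62 to 9.04). Rpl24, another protein of the contact between the subunits, had 341 and 1059 counts, 3.11-fold lower (2.75 to 3.52). Rpl27 had 40 and 140 counts, 3.50-fold lower (2.45 to 5.11). The interval of Rpl19 lies above that of Rpl24 and overlaps that of Rpl27. Rpl37 had 10 and 43 counts, 4.30-fold lower (2.13 to 9.60). Around the mouth of the exit tunnel, 5 of 10 listed proteins had enough counts to compare, 3 of them at least 2-fold lower and 0 higher, with a median log2 ratio of -1.17. The members nearest the 2-fold line downward were Rpl14 (log2 ratio -1.13, 32 and 76 counts) and Rpl23 (-1.10, 36 and 83 counts), which were past it. Rps4x (-0.96) and Rpl22 (-0.88, 50 and 96 counts) fell short of it and lay within 2-fold.

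In the small subunit, the lowest ratios of the whole family were found. Rps29, a zinc-binding protein of the head, had 0 siDnmt1 and 147 scrambled counts. It was at least 39.4-fold lower by its counting interval, and 49.0-fold lower when the 0 is set to a floor of 3 counts in that library. Rps23, which forms part of the decoding centre, had 1 and 42 counts, a ratio of 42.0 with an interval from 7.14 to 1698. Both rest on very few reads in the siDnmt1 library, and the size of their difference is known only within these wide bounds. Rps26, at the exit of the mRNA channel, had 61 and 387 counts, 6.34-fold lower (4.83 to 8.45). Rps20, a head protein, had 109 and 479 counts, 4.39-fold lower (3.56 to 5.46). Both of these intervals lie above 3.5-fold. Rps9, a protein of the body close to the entry of the mRNA channel, had 221 and 786 counts, 3.56-fold lower (3.06 to 4.15).

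Other abundant small subunit members, Rps14, Rps3a1, Rps3 and Rps4x, were lower as well, by smaller ratios. Rps14, a platform protein, had 949 siDnmt1 and 2681 scrambled counts, 2.83-fold lower (2.62 to 3.05). Rps3a1 had 625 and 1472 counts, 2.36-fold lower (2.14 to 2.59). Rps3, which lines the entry of the mRNA channel, had 227 and 616 counts, 2.71-fold lower. Rps14, Rps3a1 and Rps3 were thus between 2 and 3-fold lower. Rps9, at 3.56-fold, and Rps6, at 1.54-fold, lay outside that range with mean counts of 503.5 and 633, above the 421.5 of Rps3. Rps4x, encoded on the X chromosome, had 675 and 1322 counts, 1.96-fold lower (1.78 to 2.15). Some small subunit members did not differ beyond counting error: Rpsa, known also as a laminin receptor, had 195 and 203 counts, 1.04-fold lower (0.851 to 1.27), and its log2 ratio was 0.04 when both libraries were scaled to equal totals without Rn45s. By position in the subunit, 11 of 14 listed head proteins could be compared, 7 of them at least 2-fold lower and 0 higher, with a median log2 ratio of -1.30. Of 17 listed body and platform proteins 14 could be compared, 7 lower and 1 higher, with a median of -1.10.

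**Figure D3:**
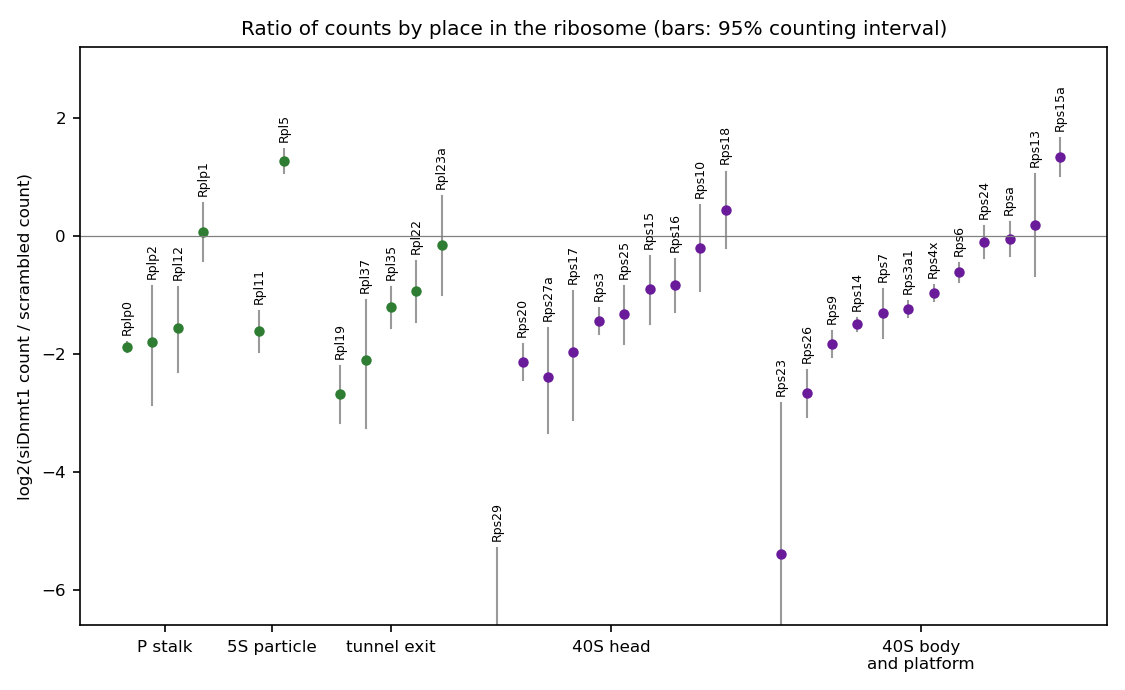
Log2 of the plain ratio of siDnmt1 to scrambled counts for members grouped by place in the ribosome, some of them not drawn, in green for the large and purple for the small subunit, with bars for the 95% counting interval. Rpl5 and Rpl11 of the 5S particle lie on opposite sides of 0, and Rps29, with 0 counts in the siDnmt1 library, has only the upper bound of its interval.

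Further members filled the range between these. Rpl28 had 85 and 271 counts, a log2 ratio of -1.62. Rpl35, which sits at the tunnel exit where targeting factors dock, had 104 and 241 counts, a log2 ratio of -1.17. Rps7 had 71 and 176 counts and Rps25, a head protein, 50 and 126, each with a log2 ratio of -1.25. Rpl35, Rps7 and Rps25 thus lay close to the median of the family. Rps6, the small subunit protein that the S6 kinases phosphorylate, was within 2-fold, with 499 and 767 counts, 1.54-fold lower. Rps24 with 222 and 238 counts and Rpl41, the shortest of the ribosomal proteins, with 103 and 134 were nearer to equality. Rpl3, which lies beside the catalytic centre, had 353 and 315 counts, and the small-count members Rpl32 (57 and 41), Rpl9 (32 and 19), Rps18 (50 and 37) and Rps13 (26 and 23) also had more counts in the siDnmt1 library. Within the 59 core genes compared, paralogs left out, 33 were at least 2-fold lower and 3 higher.

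Some ribosomal proteins are made as fusions with ubiquitin or a ubiquitin-like protein and then cut free, and Rps27a and Fau of this kind were lower. Rps27a had 14 siDnmt1 and 74 scrambled counts, 5.29-fold lower (2.96 to 10.1). Fau, which does not carry a ribosomal symbol and is outside the 90 rows, had 129 and 355 counts.

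Paralogs of core genes are mostly retrocopies or duplicates, and some of them are used in particular tissues such as testis. Of the 8 paralog rows 5 could be compared, 4 of them at least 2-fold lower. Rpl39l had 50 siDnmt1 and 201 scrambled counts, 4.02-fold lower (2.94 to 5.60), while its core gene Rpl39 had 8 and 12. Rpl10l had 39 and 129 counts, 3.31-fold lower (2.30 to 4.86), and its core gene Rpl10 had 33 and 88, 2.67-fold lower (1.77 to 4.11). In both pairs the paralog had more counts than the core gene in both libraries. Rpl36al had 8 and 32 counts, 4.00-fold lower (1.81 to 10.0), while Rpl36a had 11 and 13. Rps4y2, given as Rps4l in later annotation, had 132 and 310 counts, 2.35-fold lower (1.91 to 2.90), beside the 1.96-fold of Rps4x. It is among the 4 lower paralog rows, but the annotation used for lengths gives it no coding sequence. Rpl7l1, a factor in large subunit assembly, was the exception: it had 555 and 325 counts, 1.71-fold higher (1.49 to 1.96), while Rpl7 had 77 and 187, 2.43-fold lower. The remaining paralogs were too low to compare: Rpl22l1 had 10 and 0 counts, Rpl3l 0 and 3 beside 353 and 315 for Rpl3, and Rps27l 3 and 1 beside 0 and 1 for Rps27. Reads of near-identical copies may have been divided between them in the counting, and their values are uncertain for that reason.

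Below the minimum of 20 lay 26 members, 18 of them core genes: 13 had fewer counts in the siDnmt1 library, 10 had more and 3 (Rpl26, Rpl31-ps12 and Rpl34-ps1) were at 0 in both. Rpl30, chosen after its values were seen, had 2 and 32 counts, a ratio of 16.0 (4.08 to 138).

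Ribosomal protein mRNAs are short, and short transcripts as a whole were lower in the siDnmt1 library. The members compared had a median transcript length of 882.5 nt, against 3357 nt over the rows with a length. In the length class from 750 to 1000 nt, 17 of 22 members (77.3%) were at least 2-fold lower, with a median log2 ratio of -1.29, and 64.4% of the 118 other rows of that length were, with a median of -1.31. Under 750 nt, 8 of 19 members (42.1%) were lower, with a median of -0.36, beside 60.7% and -1.21 for the 61 other rows. From 1000 to 1500 nt, 10 of 14 members (71.4%) were lower, with a median of -1.24, beside 38.3% and -0.72 for 478 other rows. From 1500 to 3000 nt, the median of 7 members was -0.06 and that of 2373 other rows -0.13. The medians of members and other rows were thus close from 750 to 1000 nt and from 1500 to 3000 nt, while members were less low in the shortest class and lower from 1000 to 1500 nt, with no test of these differences. At 3000 nt and above only Rps15a (5179 nt) and Rps20 (3706 nt) were left. Each length is that of a single annotated transcript per gene, with the longest taken where coding lengths were equal. Which transcripts the embryos held was not measured, so a gene's length class may not be that of its mRNA.

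**Figure D4:**
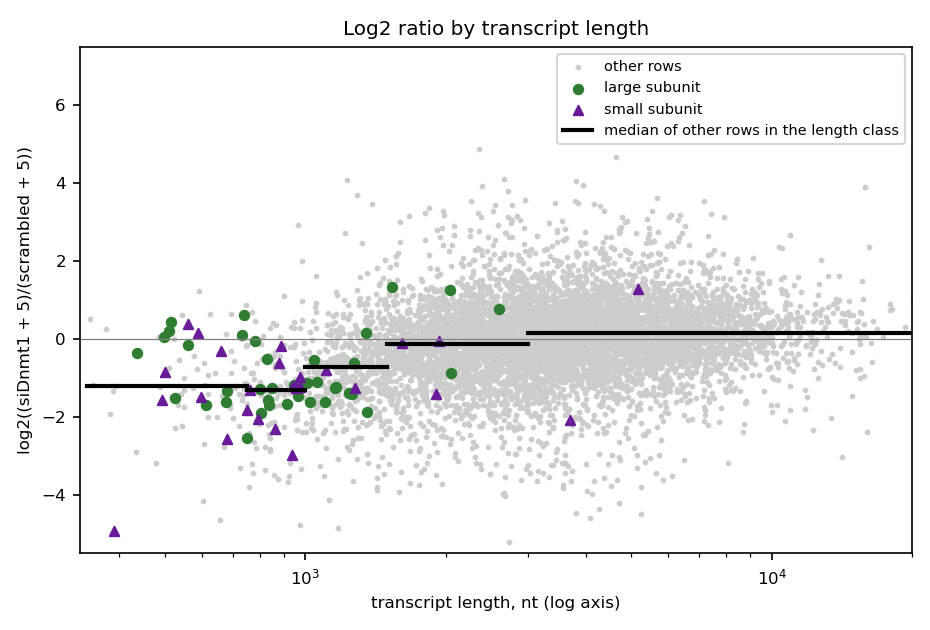
Log2 ratio with 5 added to each count (vertical axis) against annotated transcript length in nucleotides (logarithmic axis), with circles for large subunit members, triangles for small subunit members, grey points for other rows, and black lines for the median of other rows in each length class. The black lines lie at -1.21 and -1.31 in the classes under 1000 nt and at 0.15 from 3000 nt on.

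Across all 7270 rows with a length, length and log2 ratio had a Pearson r of 0.26 and a Spearman rho of 0.26, and across the 64 members 0.26 and 0.11. These are correlations across genes of the same 2 libraries, and genes are not replicates. With the running trend on transcript length taken off every row, the median log2 ratio of the members was -0.13, with 38 of the 64 below 0 and 26 above. The counts past 2-fold on that scale are the 8 lower and 14 higher given above. With a trend on coding length instead, a measure chosen after the data were seen, the median was -0.66, with 14 lower and 9 higher. Of the 7183 rows with a coding length, 993 were lower and 933 higher on that scale. The part of transcript length in the lower member counts was otherwise not tested.

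The level of each core gene was set on a scale of counts per kilobase of coding sequence, as a rough comparison between genes. The scale takes no account of untranslated length, which differs between genes. Coding sequence is 393 of 5179 nt in the annotated transcript used for Rps15a and 78 of 437 nt in that used for Rpl41. The order of genes may thus differ on another scale. The median of the 77 core genes was 81.0 in the siDnmt1 and 175.8 in the scrambled library, with interquartile ranges of 34.5 to 304 and 74.3 to 655. Rpl4 was highest in both, at 22411 and 8916. In the scrambled library Rps14 (5879) and Rpl8 (5592) followed it, and in the siDnmt1 library Rpl35a (3676), Rpl8 (2355) and Rps14 (2081). Rpl35a thus stood second in the siDnmt1 library on this scale. At 0 counts were 3 core genes in the siDnmt1 library and 2 in the other library.

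Ribosomal protein genes have many processed pseudogenes, whose near-identical sequences compete for the same reads, and how the authors treated reads with several matches is not given in the sources used here. Of the 77 core genes, 73 had at least 1 annotated pseudogene of at least 90% identity over at least 80% of the coding sequence, and 64 had one of at least 98% identity; the median was 9. The 11 genes with 20 or more pseudogenes had median levels of 42.3 and 34.4 counts per coding kilobase in the siDnmt1 and scrambled libraries. The 17 genes with fewer than 5 had 303 and 914. Rpl21, with 76 pseudogenes, had 11 and 7 counts, and Rpl17, with 50, had 1 and 0. Across the 77 genes the pseudogene number and the mean level had a Pearson r of -0.19 and a Spearman rho of -0.48, as a description over genes of the same libraries.

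**Figure D5:**
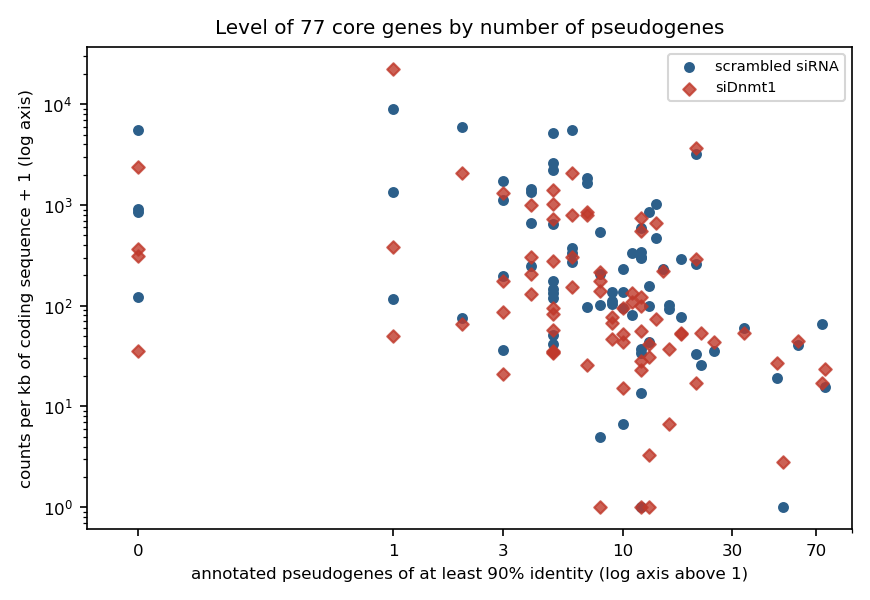
Counts per kilobase of coding sequence plus 1 (logarithmic axis) of the 77 core genes against the number of annotated pseudogenes of at least 90% identity (logarithmic above 1), with circles for the scrambled and diamonds for the siDnmt1 library. In the class with fewer than 5 pseudogenes the medians were 303 (siDnmt1) and 914 (scrambled), and in the class with 20 or more 42.3 and 34.4.

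The ratio between libraries was set against the pseudogene number in the same way. The median log2 ratio was -1.27 with fewer than 5 pseudogenes (11 of 16 compared at least 2-fold lower), -1.07 with 5 to 9 (10 of 20), -1.25 with 10 to 19 (11 of 18) and 0.12 with 20 or more (1 of 5). Over the 59 core genes compared, Pearson's r was 0.05 and Spearman's rho 0.12. In the class of 20 or more, 6 of 11 genes were too low to compare. Rpl4 had 1 pseudogene. The part of pseudogenes in the ratios was not tested. Small nucleolar RNA genes lie inside 30 of the members, and Rpl4 contains 5 such genes; the share of their reads in the member counts was not tested.

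Other genes of translation did not share one direction, and the median transcript of each list below was longer than that of the ribosomal protein genes. Of 9 elongation and termination factors compared, 2 were at least 2-fold lower and 2 higher (22.2% each, beside 16.7% and 12.5% of all rows), with a median log2 ratio of 0.13. Eef2, which moves the ribosome along the mRNA, had 113825 siDnmt1 and 51544 scrambled counts, 2.21-fold higher, and Eef1g had 677 and 315. At the other end Eef1e1, whose protein belongs to the complex of tRNA synthetases, had 572 and 2506 counts and Eef1d 108 and 244. A further list held 22 translation genes compared whose mRNAs are known for a TOP start, among them some of these factors and Fau. Of the 22, 8 were lower (36.4%, beside 16.7% of all rows) and 2 higher (9.09%, beside 12.5%), with a median of -0.39. The lowest of these were Eif3h, a subunit of an initiation factor, with 744 and 2226 counts, and Gas5, a non-coding host of small nucleolar RNAs, with 79 and 226; the highest were Eef2 and Eef1g.

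The next list held 15 genes of mTOR signalling, the Larp family and the Rps6ka and Mknk kinases that could be compared. Not all of the 15 act on TOP mRNAs. Of these, 2 were at least 2-fold lower (13.3%, near the 16.7% of all rows) and 0 higher, with a median of 0.14. Larp4 had 9027 siDnmt1 and 24648 scrambled counts, and Larp7 155 and 361. Larp1, which binds the TOP start, had 17239 and 8968 counts, and Tsc1, a brake on mTOR, 2064 and 1110. Of 24 chaperones and export factors of ribosomal subunits, 4 were lower (16.7%, the share over all rows) and 0 higher, with a median of -0.57. The lowest were Eftud1, the GTPase that releases Eif6 from new large subunits, with 22 and 80 counts, and Bccip with 104 and 220; the highest were Rsl24d1 with 166 and 82 and Gnl3l with 2974 and 1752. Of 13 ribosome-associated proteins, 3 were lower (23.1%, beside 16.7% of all rows) and 2 higher (15.4%, beside 12.5%), with a median of -0.54. Hbs1l and Abce1, which act on stalled and finished ribosomes, had 665 against 103 and 1852 against 766 counts, and Sec61a1, the channel for secreted proteins, and Ccdc124 had 339 against 1060 and 164 against 395. Mitochondrial ribosomal proteins, which build the separate ribosome of that organelle, had a median of -0.52 over 44 genes compared. Of these, 14 were at least 2-fold lower (31.8%, beside 16.7% of all rows) and 6 higher (13.6%, near the 12.5% of all rows). Median transcript lengths were 2152 nt for the elongation list, 1829 nt for the TOP list and 5531 nt for the mTOR and Larp list. They were 3045.5 nt for chaperones and export factors, 2564 nt for associated proteins and 1417.5 nt for mitochondrial ribosomal proteins. The members compared had 882.5 nt. The difference between these lists and the cytosolic ribosomal protein genes was not tested, since each group has 1 library, and neither was the part of length in it.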

How the data were processed

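Poly(A) RNA from 1 pool of 20 embryos per group was sequenced after pico-profiling, a method that tags and amplifies cDNA from very small inputs, per the labels' protocols. The deposited file holds whole-number counts per gene; per the submitters' processing notes the build was mm9 and the tools were HTSeq, HISAT2, Trim Galore and DESeq2, without versions. Not given in the sources used here are the annotation, the strand setting and the handling of reads that match several places. The deposited table is described as normalized with DESeq2, yet its columns skipped 0 whole numbers from 1 to 59 and its DESeq2 size factors came to 1 and 1, which a normalized table would give too; the deposited counts were used without further scaling. Names of 27 rows had become dates and these rows could not be members.

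Ratios were log2 of counts plus 5, for rows that averaged 20 counts or more, and intervals were 95% Clopper-Pearson bounds of the ratio of 2 counts. With 1 library per group there were 0 residual degrees of freedom, which leaves edgeR's quasi-likelihood test without an estimate of spread, and p-values are not printed. Transcript and coding lengths and pseudogenes came from GENCODE M21, by symbol, and pseudogenes were found with blastn 2.17.0. The transcript used for a gene was chosen in order by coding status, curated RefSeq match, basic tag, longest coding sequence and longest transcript. Promoter windows came from RefSeq on GRCm38.p6. No gene coordinates are given otherwise, since the build of the files differs. Scaling factors came from edgeR 4.0.16 and DESeq2 1.42.0 in R 4.3.3, intervals from scipy 1.17.1 and the length trend from statsmodels 0.14.6 in Python 3.11.15, and the calculation of ratios was tested on simulated data. Genes named with values were all members at least 2-fold higher, the 12 lowest ratios, the 10 highest mean counts, the stalk, Rpl5, Rpl11, Rpsa, Rps27a, each paralog beside its core gene, the 2 members nearest each side of the 2-fold line, the ends of each pathway list, and further genes of a structural group; some genes that this rule names are not reported here. The members and lists were chosen with earlier results of these data known. Alternatives covered the added count, the minimum, the fold line, scaling, length trends and subsets of members.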

Additional observations from a re-analysis of the deposited data

How the results depend on the processing

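No paired analysis was possible because each group has 1 library. The medians of all members and of each subunit stayed below 0 under every alternative run. The difference between the subunits changed sign, with -0.05 with no minimum count and -0.03 with the transcript-length trend taken off. With that trend taken off 14 of the 64 members changed sign, among them Rpl13a (0.41), Rpl41 (1.24), Rps6 (0.47), Rps24 (0.33), Rps4x (0.04) and Rpsa (0.17), and with the longest transcript 13 and with coding length 7 of 63 did. At equal totals 1 did, Rplp1 (-0.01), and at equal totals without Rn45s 2 did, Rpsa (0.04) among them. Adding 20 counts gave medians of -0.96 for all members, -0.89 for the large and -1.08 for the small subunit, which differ by 0.19. With no minimum count the medians were -0.83, -0.87 and -0.81, and over all rows 1682 were higher and 2122 lower. A minimum mean of 100 left 21 of 34 members lower (61.8%, beside 11.4% of rows), and 395 rows higher and 482 lower over all rows. At a 4-fold line 7 members were lower and 0 higher, beside 330 and 193 of all rows. Means in place of medians were -0.98 for all members, -0.83 for the large and -1.21 for the small subunit, which differ by 0.38. With the transcript-length trend taken off, the medians were -0.13, -0.14 and -0.11. Past 2-fold were 8 members lower and 14 higher, beside 993 and 938 of all rows. With the longest transcript of each gene the medians were -0.16, -0.22 and -0.15, a difference of -0.064. Then 11 members were lower and 10 higher, beside 1018 and 938 of all rows. With the coding-length trend taken off the medians were -0.66, -0.64 and -0.76. Here 14 members were lower and 9 higher, beside 993 and 933 of all rows. In members with fewer than 5 pseudogenes the small subunit median was -1.46, 0.33 from the large, with 15 of 21 lower (71.4%) and 1 higher. Without Rpl4 the ratio of summed counts fell from near equality to 0.471. The longest-transcript, coding-length, pseudogene and Rpl4 alternatives were chosen after seeing the data. The cause of these shifts was not tested, save that stricter minimums and subsets leave fewer rows. Scaling to equal totals with or without Rn45s or by TMM moved no median by 0.1 or more and no count by over 1.5 times. The DESeq2 size factors of 1 and 1 leave every value as it is. Setting the median of all rows to 0 shifts every row alike by 0.02, so neither could move a median by 0.1. Depth limits genes such as Rps29 and Rps23, with 0 and 1 counts in the siDnmt1 library.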
